A study of Mus musculus with 69 samples.

Results

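Genes of heart muscle were followed in the lungs of 69 mice. The set was a list of 35 genes for the contractile, calcium-handling, hormonal and energy machinery of heart muscle cells, and its members were found on the array by matching the transcript identifier of each probe to a gene symbol. Of the 35 genes, 34 were measured, through 54 of the 41174 probes, and stood among 17628 measured genes in all. Smpx was named in the list but no probe was matched to it.

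All mice were female C57BL/6 animals with no genetic modification, 5 to 7 weeks old on arrival and then acclimatised for 1 to 3 weeks. Each mouse received a single intratracheal instillation of titanium dioxide nanoparticles, or of the vehicle alone, which was 2% serum in water. The particle called NRCWE-001 had no surface modification, whereas that called NRCWE-002 had been given a positive surface charge. The doses of each particle were 18, 54 and 162 µg, and lungs were taken on day 1 or day 28. There were 5 mice in each of the 12 exposed groups and in the vehicle group of day 1, and 4 in the vehicle group of day 28. RNA was made from a small frozen piece of each lung, and the labels do not say from which part of the lung it came. Every array carried the RNA of 1 mouse beside a common mouse reference RNA, and each level below is the log2 ratio of lung to reference. A level therefore compares mice for 1 gene and does not compare genes with each other. The replicate numbers used below only name the mice of a group.

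Heart muscle cells shorten when myosin heavy chains, with their light chains, pull on thin filaments of actin and troponin. The atria and the ventricles of the adult mouse use partly different forms of these proteins. Myl7, Myl4, Sln and Nppa are typical of the atrium, and Myl2 and Myl3 of the ventricle. In mice, heart muscle resembling that of the atrium also runs along the pulmonary veins into the lung. Several members of the list, such as Ckm, Mb, Actn2 and Myl3, are used by skeletal muscle as well, and Myh7, Myl2 and Myl3 are the forms of slow skeletal fibres.

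The promoters of a few members that rose and fell together from mouse to mouse, and of Myh7, which did not, are shown here. Whether promoter sequence bears on these levels was not tested. Each line is the stretch of 250 bases before the annotated start, read on the strand of the gene, from RefSeq on build GRCm38.p6. Of the 34 measured genes, 29 had a promoter in the RefSeq table. Capitals mark matches, on either strand, to the TATA box TATAAA, to the core AGATAA of sites for GATA factors, to the core AGGTGT of T-box sites and to CATTCC, the MCAT site of TEAD factors. The stretches lie at chr14:54966608-54966857 on the minus strand for Myh6, chr11:5898783-5899032 on the minus strand for Myl7, chr7:4522529-4522778 on the minus strand for Tnni3, chr4:148000472-148000721 on the plus strand for Nppa and chr14:54994627-54994876 on the minus strand for Myh7.
Myh6: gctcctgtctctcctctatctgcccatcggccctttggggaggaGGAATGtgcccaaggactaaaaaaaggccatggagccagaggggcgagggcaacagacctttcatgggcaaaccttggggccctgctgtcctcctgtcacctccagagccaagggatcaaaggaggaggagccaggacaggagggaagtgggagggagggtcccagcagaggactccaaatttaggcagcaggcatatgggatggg
Myl7: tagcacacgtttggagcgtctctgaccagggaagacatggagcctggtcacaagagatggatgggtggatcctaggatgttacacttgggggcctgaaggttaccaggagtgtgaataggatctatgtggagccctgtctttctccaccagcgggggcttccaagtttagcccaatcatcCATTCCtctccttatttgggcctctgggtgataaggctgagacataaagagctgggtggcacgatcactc
Tnni3: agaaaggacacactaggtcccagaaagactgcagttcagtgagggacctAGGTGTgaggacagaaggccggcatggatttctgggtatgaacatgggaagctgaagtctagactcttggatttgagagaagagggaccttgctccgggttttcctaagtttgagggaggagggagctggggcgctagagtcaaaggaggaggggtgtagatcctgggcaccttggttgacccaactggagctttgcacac
Nppa: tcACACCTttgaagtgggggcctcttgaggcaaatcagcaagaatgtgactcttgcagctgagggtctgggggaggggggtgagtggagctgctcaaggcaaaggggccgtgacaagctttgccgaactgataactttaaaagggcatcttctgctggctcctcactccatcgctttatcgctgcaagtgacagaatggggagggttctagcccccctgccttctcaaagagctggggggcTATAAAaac
Myh7: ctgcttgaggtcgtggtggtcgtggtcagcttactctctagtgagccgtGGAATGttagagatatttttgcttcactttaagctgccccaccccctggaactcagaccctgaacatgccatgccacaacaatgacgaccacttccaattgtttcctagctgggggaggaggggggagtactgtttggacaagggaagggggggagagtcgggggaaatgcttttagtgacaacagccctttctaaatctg
CATTCC began 206 bases before the start in Myh6, 70 in Myl7 and 201 in Myh7, AGGTGT began 201 bases before it in Tnni3 and 248 in Nppa, and TATAAA 9 bases before it in Nppa. The table holds a second start of Myh7, and the 250 bases before that one hold none of the 4 motifs. None of the 4 motifs stood in all of these stretches. CATTCC was found in 8 of the 36 promoters of members (22.2%) and in 12.6% of all 32851 promoters of the table. AGATAA was found in 6 of 36 (16.7%) against 9.99% of all promoters, AGGTGT in 4 of 36 (11.1%) against 11.8%, and TATAAA in 4 of 36 (11.1%) against 12.4%. CANNTG, the E-box, was found in 32 of 36 (88.9%) against 66.2%. These are matches of letters, and binding of a factor was not measured.

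Between 61.4% and 87.8% of spots were well above background in the lung channel and between 49.7% and 85.5% in the reference channel, and 0 spots were saturated. A pair of slides stood apart, with 79.7% to 87.8% on their 7 arrays, which came from 6 groups, against 61.4% to 80.0% on the others. The surfactant gene Sftpc and the endothelial gene Cldn5, markers of lung tissue, lay far above the reference on all 69 arrays, with lowest levels of 6.68 and 5.87. On 7 arrays, all of exposed mice, the fast skeletal muscle genes Mylpf and Acta1 both lay above the reference. The 7 were picked by this rule, so that these genes are high on them is not a separate result. The fast light chain Mylpf lay between 1.00 and 5.19 on these 7 and no higher than -0.38 on the other 62, and skeletal actin Acta1 between 2.04 and 6.42 against no higher than -0.69. They were mice 2 and 5 at 18 µg of NRCWE-001 on day 1, mouse 4 at 162 µg of NRCWE-001 on day 1, mouse 3 at 54 µg and mouse 2 at 162 µg of NRCWE-002 on day 1, and mouse 1 at 18 µg and mouse 5 at 54 µg of NRCWE-002 on day 28. The comparisons with vehicle, the relations to Myh6 and several of the ranges that these arrays set are given with and without them.

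The heart muscle genes differed widely between mice that had been treated alike. The standard deviation (SD) of the log2 ratio within groups had a median of 0.977 over the 34 members, and of 0.173 over 17514 genes with a value on every array. Of the members, 28 lay above the 95th percentile of all genes and 24 above the 99th. Sarcolipin (Sln), a small inhibitor of the calcium pump in atrial muscle, had the highest SD of all genes, 2.34, and ran from -0.26, where its probe was not well above background, to 6.57. Without the 7 arrays the median SD of the members was 0.824, that of Sln 2.38, that of Ckm 0.38 instead of 1.18 and that of Myl2 0.13 instead of 0.80. Ckmt2, Tnni3, Mb and Myl7 ranked 9th to 12th. Nppb, at the 46.0th percentile, was the only member below the middle of all genes.

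**Figure D1:**
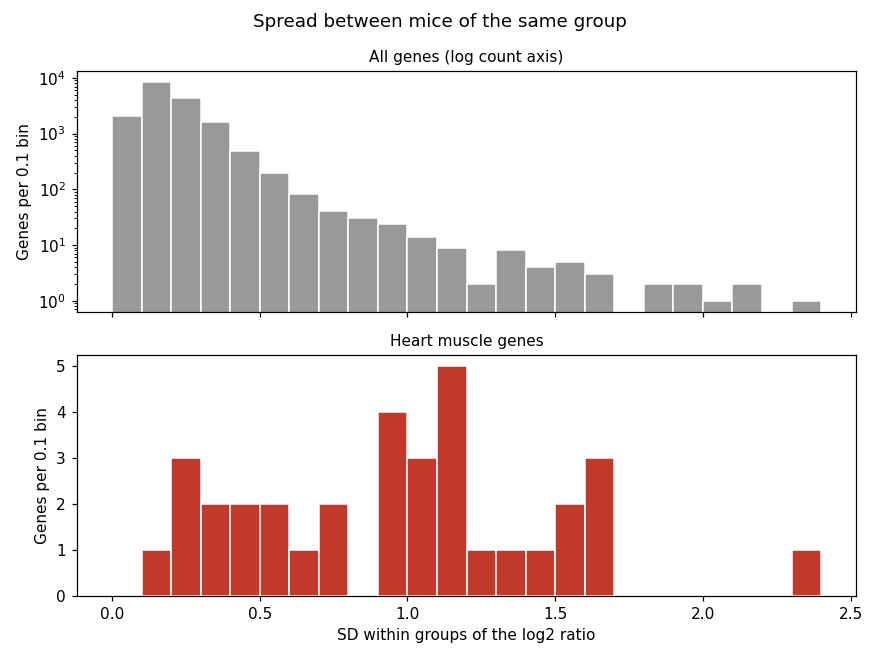
Number of genes (vertical axis, logarithmic in the upper panel) by the SD of the log2 ratio between mice of the same group (horizontal axis, bins of 0.1), for all genes above and for the 34 heart muscle genes below. The members have a median of 0.977 and reach 2.34, whereas the median of all genes is 0.173.

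The spread was present in vehicle mice as well as in exposed mice. The median SD of the members was 0.786 over the 9 vehicle mice and 1.00 over the 60 exposed mice. The SD was higher in vehicle mice for 10 members, and in exposed mice for the other 24, by a wide margin for Ckm (0.35 against 1.26) and Myl2 (0.13 against 0.85). Within groups, a median of 31.1% of the members' sum of squares lay between slides, where the slides take 30.9% of the degrees of freedom, against 61.6% for all genes. Nppb (76.6%), Tbx5 (52.0%) and Ankrd1 (50.1%) had the largest shares among the members. In bulk tissue, fewer heart muscle cells and less RNA per heart muscle cell cannot be told apart.

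Among the atrial light chains, Myl7 stood at 3.48, 3.28, 2.98, 2.75 and 6.45 in the 5 vehicle mice of day 1, and at 6.32, 2.93, 3.01 and 2.82 in the 4 of day 28. In each vehicle group, 1 mouse was therefore about 3 units of log2 above the others. At 162 µg of NRCWE-001 on day 1 the values were 6.48, 2.36, 2.43, 5.90 and 2.67, so that mice of both kinds lay in the same exposed group as well. Over all 69 mice the level ran from 1.61 to 6.86. The atrial essential light chain Myl4 showed the same mice apart, at -0.24, -0.20, -0.05, 0.02 and 3.32 in the vehicle group of day 1 and at 2.87, 0.10, -0.14 and -0.24 in that of day 28.

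Sln divided the vehicle mice most widely. It lay at 0.31, -0.06, 0.13, 0.09 and 6.13 on day 1 and at 5.67, 0.30, -0.01 and 0.09 on day 28. The low values are near background: the probe was well above background on 2 of 5 and on 2 of 4 of these arrays, and on 51 of 69 in all. In the group of 162 µg of NRCWE-002 on day 28 all 5 mice were high, at 4.94, 5.46, 4.25, 6.25 and 5.29. In the group of 18 µg of NRCWE-002 on day 1, 4 mice were low, between -0.26 and 0.04, and mouse 5 was at 4.77.

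**Figure D2:**
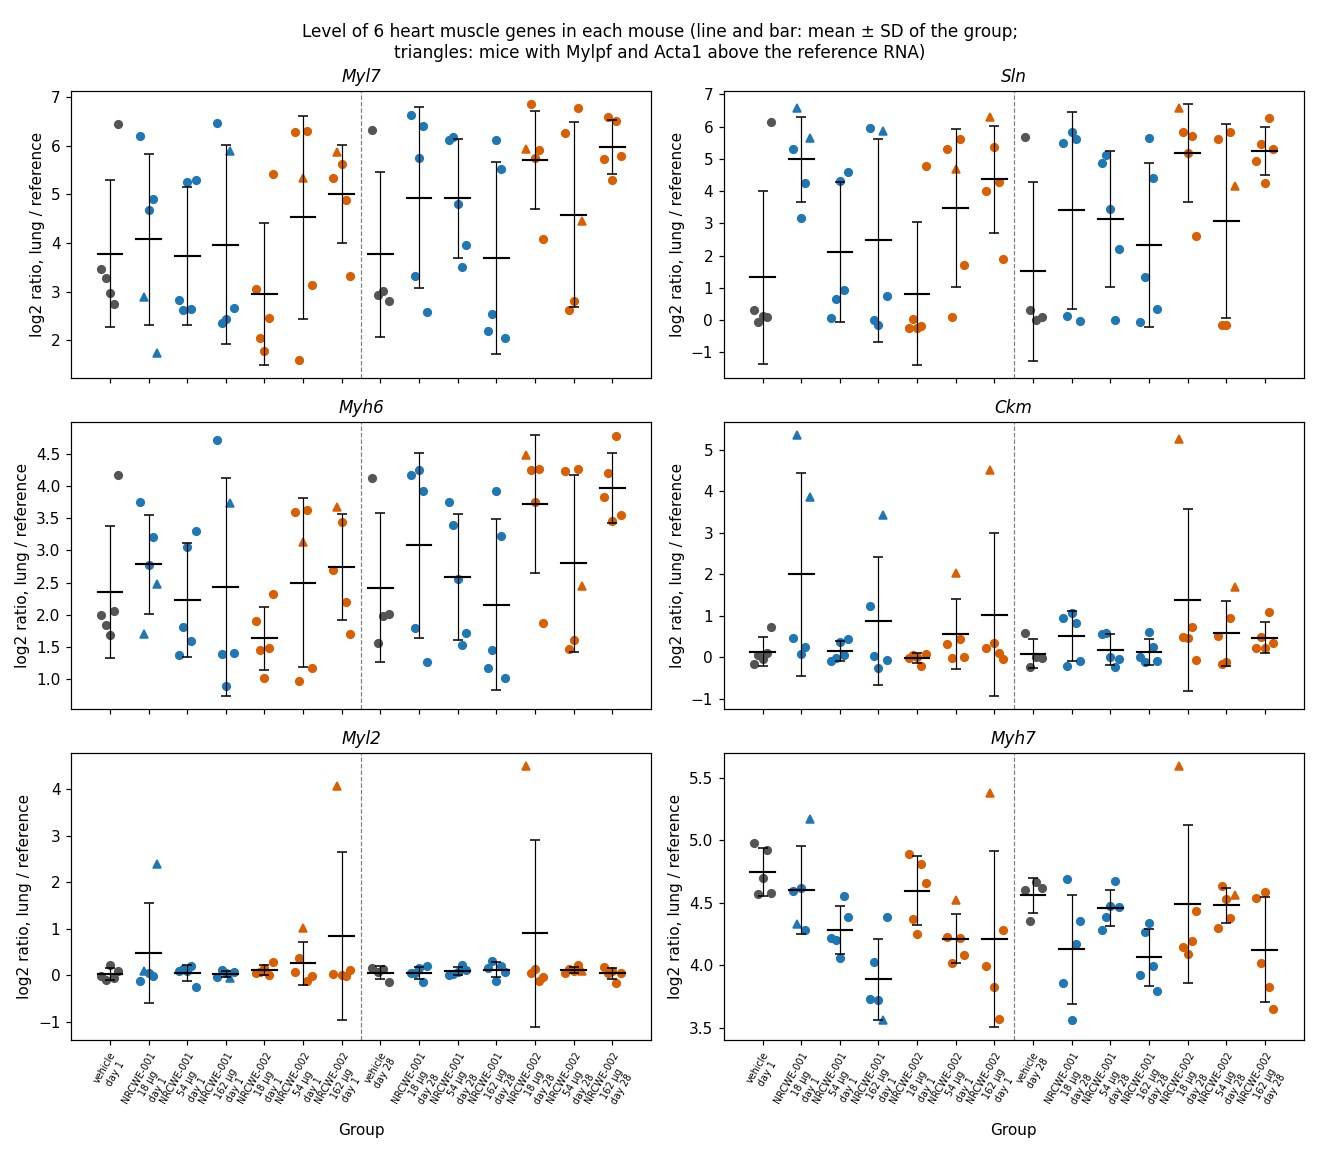
Level of 6 heart muscle genes in each of the 69 mice (vertical axis, log2 ratio of lung to reference) by group (horizontal axis, day 1 to the left of the dashed line), with the group mean and SD. Myl7, Sln and Myh6 hold high and low mice within vehicle and exposed groups, Ckm exceeds 1.23 and Myl2 exceeds 0.37 only on arrays drawn as triangles, and Myh7 is high in every mouse.

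Among genes of the thick filament, Myh6 and Mybpc3 varied widely and Myh7 less. Myh6, the main myosin heavy chain of the adult mouse heart, lay at 2.00, 1.83, 1.69, 2.06 and 4.17 in vehicle mice of day 1 and at 4.13, 1.56, 1.98 and 2.02 in those of day 28. Its levels over the 69 mice ran from 0.90 to 4.78 without a break, the largest gap between neighbours being 7.33% of the range. Mybpc3, the cardiac myosin-binding protein C, ranged from -4.32 to 0.16. Myh7, the slow heavy chain, stayed between 3.56 and 5.59, and reached 4.98 without the 7 arrays with skeletal muscle genes. Its SD within groups was 0.36, at the 92.2nd percentile of all genes.

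Of the ventricular light chains, Myl2 was at the level of the reference or close to it in nearly all mice. It was well above background on 20 of 69 arrays, and its values in vehicle mice lay between -0.15 and 0.22. It exceeded 1 on 4 arrays, all among the 7 with skeletal muscle genes, at 2.38, 1.02, 4.06 and 4.49. Myl3 joined both patterns, being 0.80 and 0.84 in the same vehicle mice that were high for Myl7, and 4.42, 1.76, 2.67, 1.06, 2.71, 3.02 and 1.59 on the 7 arrays.

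The thin filament followed the atrial light chains. Cardiac troponin I (Tnni3) was at 0.07, -0.26, 0.03, -0.17 and 3.95 in vehicle mice of day 1 and at 3.28, 0.32, -0.26 and -0.16 in those of day 28. The same mouse of each group was the high one. Cardiac troponin T (Tnnt2) ranged from -1.42 to 3.72 over all mice and troponin C (Tnnc1) from -1.24 to 2.13. Cardiac actin (Actc1) spread less, from -1.53 to 1.96, and was 0.38 in vehicle mouse 5 of day 1 against -1.13 to -0.74 in the other 4.

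The levels that follow are near background where they are low. Of 69 arrays, the probes were well above background on 45 for Actn2 and Myoz2, on 44 for Casq2, on 48 for Ryr2, Ckmt2 and Mb, on 50 for Hrc, on 52 for Csrp3 and on 41 for Ckm. In vehicle mice these genes were above it on 1 to 3 of 5 arrays on day 1 and on 1 or 2 of 4 on day 28. The Z disc anchors the thin filaments, and titin (Ttn) spans from it to the middle of the sarcomere. Tcap, the titin cap, reached 5.32 with a median of 3.32 over the mice, and Csrp3 ranged from -0.27 to 4.73 and Actn2 from -0.44 to 4.71. These highest values were on arrays with skeletal muscle genes. Without the 7 arrays Tcap reached 4.75, Csrp3 4.11 and Actn2 2.73. Ttn ranged from -0.11 to 2.24 as the median of its 8 probes, and reached 0.56 without the 7 arrays. Several of these probes were near background, being well above it on as few as 16 of 69 arrays. The Ttn probe with the highest value reached 5.10 and had an r of 0.717 with Myh6. The stress-responsive Ankrd1 moved less than Csrp3 and Actn2, from -2.66 to -0.52. Among calcium handlers other than Sln, the histidine-rich Hrc ranged from -0.74 to 4.34, the calcium store protein Casq2 from -0.52 to 2.09 and the release channel Ryr2 from -0.06 to 1.64. Without the 7 arrays Hrc reached 2.54 and Casq2 1.45. Phospholamban (Pln), the pump inhibitor of the ventricle above all, was well above background on only 26 arrays and reached 1.55 in 1 mouse, with 0.62 and 0.72 in the high vehicle mouse of each day and 0.02 to 0.09 in the other 7.

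The atrial hormone gene Nppa was near the reference in most mice, and its low values are near background. Its 2 probes had median intensities of 87 and 110 in the lung channel, and were well above background on 35 and 69 of 69 arrays. Nppa was 2.13 in vehicle mouse 5 of day 1 and 0.55 in vehicle mouse 1 of day 28, and between -0.08 and 0.03 in the other 7 vehicle mice. Its highest value was 3.77, in a mouse given 162 µg of NRCWE-002 and examined on day 28. Nppb, the related hormone gene, varied between -1.13 and 0.15 and showed no such high mice. Its 2 probes were dim, with median intensities of 97.5 and 98 in the lung channel, against 76 for the probe of Myl2. They were well above background on 64 and 56 of 69 arrays. Tbx5, a transcription factor of heart and lung, lay no higher than 1.94 in 68 mice. The value of 3.16 in the remaining mouse is that of 1 probe alone, where the other mice have the median of 2 probes.

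Genes of energy supply and oxygen storage carried both patterns. Myoglobin (Mb), the oxygen store of heart and red muscle, was at 3.85 and 3.56 in the high vehicle mice and between -0.15 and 0.13 in the other 7. The muscle creatine kinase Ckm was at 0.73 and 0.58 in those mice and between -0.23 and 0.10 in the other 7. On the 7 arrays with skeletal muscle genes Ckm lay between 1.70 and 5.35, and on no other array above 1.23. The mitochondrial creatine kinase Ckmt2 reached 3.65 and 3.16 in the high vehicle mice and 6.63 on the array of mouse 1 at 18 µg of NRCWE-002, day 28. Cox6a2, Cox7a1, Cox8b and Fabp3, which serve respiration and fatty acid transport, reached 3.06, 3.97, 6.71 and 3.61 on arrays with skeletal muscle genes and no more than 1.90, 2.59, 4.15 and 1.76 on the others.

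**Figure D3:**
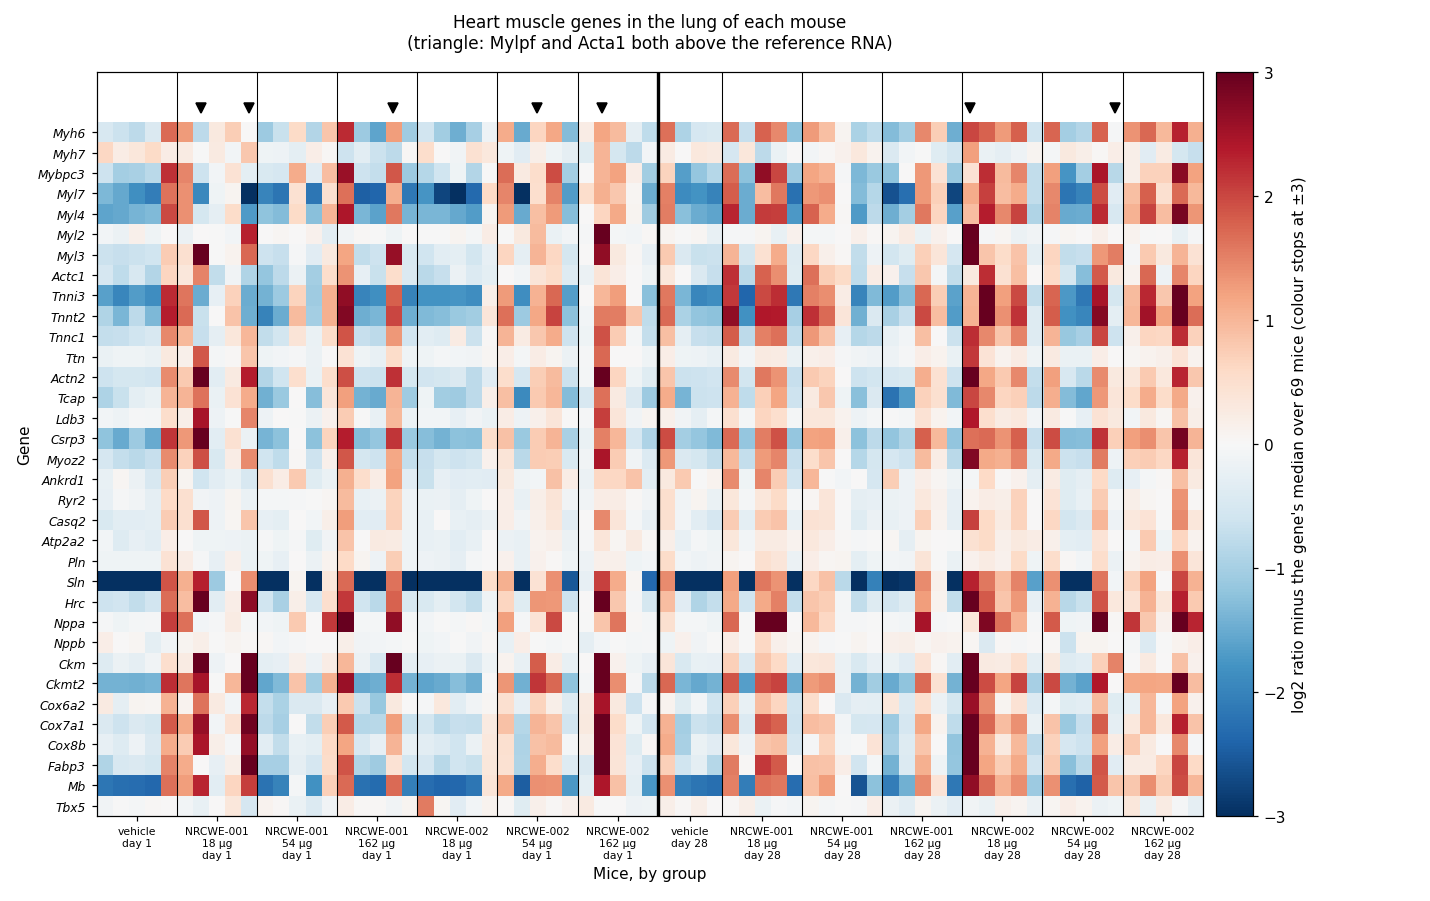
Level of the 34 heart muscle genes (rows) in the 69 mice (columns, by group, day 1 left of the thick line), as the difference in log2 ratio from the median of the gene (colour, cut at 3 units). In most rows the same mice are high, in vehicle and exposed groups, whereas the rows of Myh7, Nppb and Tbx5 do not follow them. The triangles mark the 7 arrays with skeletal muscle genes.

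One mouse led each vehicle group for nearly the whole list. In the vehicle group of day 1, mouse 5 had the highest value for 30 of 34 members, and in that of day 28, mouse 1 did for 30 of 34. In the group of 162 µg of NRCWE-001 on day 28, mouse 3 led for 31. The mean over the 34 members ran from 0.12 to 2.04 in the vehicle mice of day 1 and from 0.10 to 1.68 in those of day 28. It ran from 0.10 to 0.94 at 18 µg of NRCWE-002 on day 1, where the median of 0.12 was the lowest of all groups, and from 1.22 to 2.51 at 162 µg of NRCWE-002 on day 28, where no mouse was as low as the low vehicle mice. In the other groups the lowest mouse was between -0.04 and 0.70 and the highest between 1.30 and 2.90. Some of these groups also held no mouse as low as the low vehicle mice. They were 18 µg of NRCWE-001 (lowest 0.70) and 162 µg of NRCWE-002 (0.33) on day 1, and 18 µg of NRCWE-002 (0.44) on day 28.

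The relation of each member to Myh6 was tested over the 69 mice after the mean of each group was removed, by 100000 permutations of mice within groups, for 129 genes adjusted together. Pearson's r with Myh6 had a median of 0.753 over the 33 other members, and 29 of them had an adjusted p below 0.05. Tnni3 had the highest r, 0.959, with a Spearman's rho of 0.949, a permutation p of 1e-05 for both, the smallest that these permutations can give, and an adjusted permutation p of 3.39e-05 for Pearson's r and 2.87e-05 for rho. Without the pair of mice farthest from the median of Myh6 its r was 0.955, and with slide means removed as well it was 0.972.

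The atrial light chains, cardiac troponin T and cardiac myosin-binding protein C were among the closest to Myh6. Myl4 (r = 0.958, rho = 0.939), Tnnt2 (0.943, 0.928), Myl7 (0.942, 0.943), Mybpc3 (0.913, 0.904), Sln (0.906, 0.900) and Mb (0.905, 0.898) followed Tnni3, each with a permutation p of 1e-05 and an r of at least 0.902 without the pair of farthest mice. Nppa had an r of 0.804. No relation was found for Myh7 (r = -0.08, adjusted permutation p = 0.722), Myl2 (0.09, 0.619), Nppb (0.09, 0.741) and Tbx5 (0.13, 0.282).

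**Figure D4:**
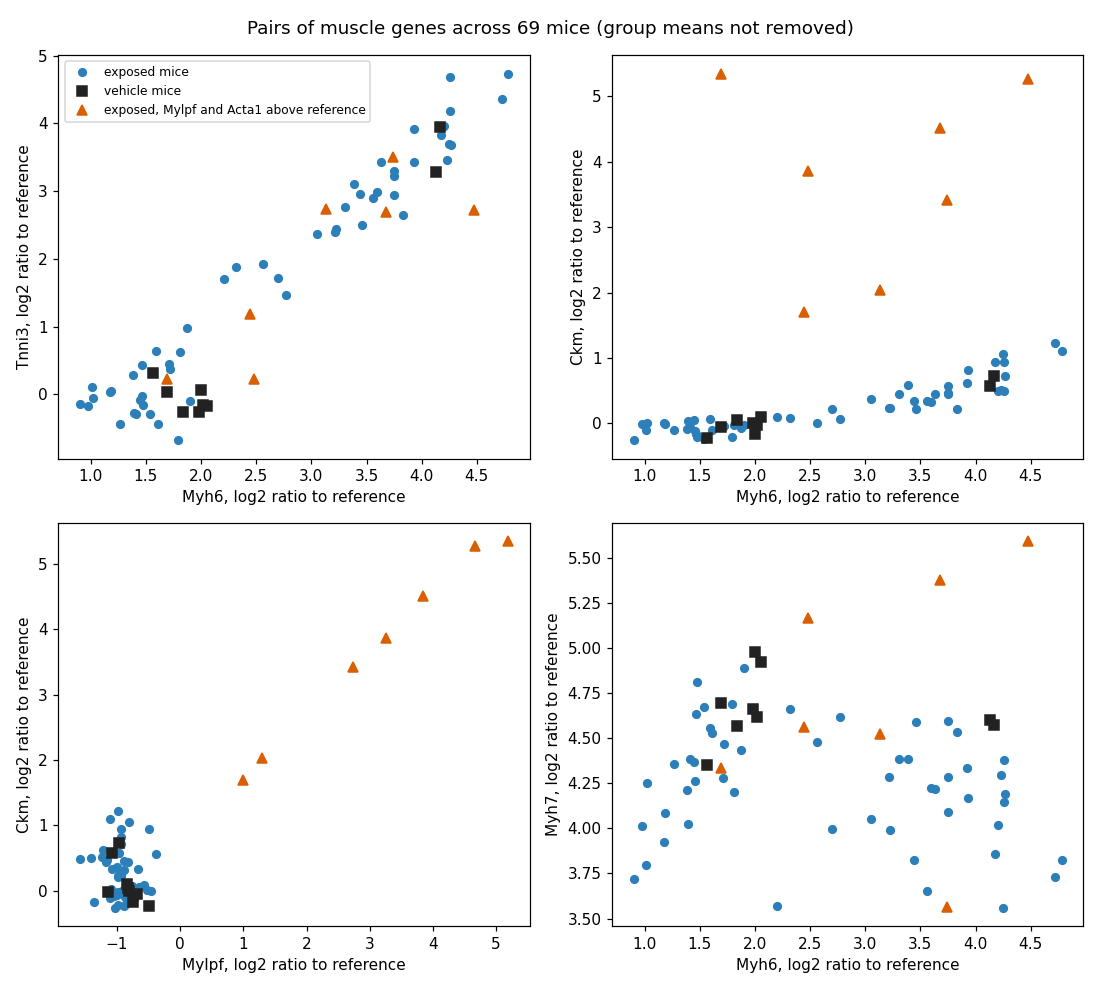
Levels of pairs of muscle genes (both axes, log2 ratio of lung to reference) in each of the 69 mice, without removal of group means. Tnni3 rises with Myh6 in vehicle and exposed mice alike (r = 0.959 after group means are removed), Ckm leaves that line on the 7 arrays drawn as triangles and there follows the skeletal gene Mylpf, and Myh7 does not follow Myh6.

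The 7 arrays weakened the relation for genes that skeletal muscle uses too. Without them the median r of the members with Myh6 was 0.922, and 25 members exceeded 0.8 where 14 did with all arrays. Ckm went from an r of 0.34 to 0.92, Ttn from 0.42 to 0.93, Ldb3 from 0.42 to 0.87 and Myl3 from 0.57 to 0.93. Myh7 (-0.27) and Myl2 (-0.32) stayed apart from Myh6. Over the 561 pairs of members the median r was 0.669 with all arrays and 0.838 without the 7.

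Genes outside the list were then ranked by their r with Myh6, as a description. The closest was Mybphl (r = 0.951), which encodes a myosin-binding protein of the atria, followed by Fndc5 (0.911), Hamp (0.906), which encodes hepcidin, Mapk10 (0.895) and Fgf12 (0.870). Mhrt, a noncoding RNA of the myosin heavy chain locus, had an r of 0.819 and the M-band gene Myom2 of 0.811. The next were genes of secretory airway cells and fat cells: Bpifa1 (0.804), Reg3g (0.803), the fat gene Cfd (0.799), Bpifb1 (0.794), Muc5b (0.782) and Scgb3a1 (0.774). Sult1d1 (0.813), Fhl2 (0.785), Frmd5 (0.780), Wdr95 (0.772), Cyp2a4 (0.763), Unc79 (0.760) and Aldh1b1 (0.758) completed the 20 closest.

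Marker lists of other tissues were set against Myh6 in the same test. Of 30 further heart muscle genes, 12 rose with Myh6 by Pearson's r, among them Myom2 and the transcription factor Tbx20 (r = 0.716), and 18 did not pass. Of those 18, Trdn (rho = 0.434, adjusted permutation p = 0.00103), Xirp1 (0.436, 0.00139) and Nexn (0.325, 0.0315) passed by Spearman's rho. Among those 18 were Bmp10 (-0.199), Kcnj5 (0.107), Kcna5 (0.234) and Gja5 (-0.056), also listed as enriched in the atrium. Irx4 (-0.043) and Hey2 (0.111), listed as enriched in the ventricle, did not pass either. Bmp10 and Kcnj5 were well above background on only 19 and 11 arrays. Of 17 genes of fast skeletal muscle, only Myh4 (0.503) and Myl1 (0.481) passed by Pearson's r, and Atp2a1 as well by Spearman's rho (0.342, adjusted permutation p = 0.00718). Without the 7 arrays r was 0.946 for Myh4, 0.942 for Myl1, 0.598 for Atp2a1, 0.405 for Tnnt3, -0.249 for Mylpf and -0.387 for Myh2, with no test. Of 6 fat cell genes 4 passed, with r from 0.567 for Retn to 0.799 for Cfd. Of 9 smooth muscle genes 4 passed, led by Cnn1 (0.699), and Des as well by Spearman's rho (0.400, adjusted permutation p = 0.00364). The mesothelial genes Msln (-0.576) and Upk3b (-0.422) moved against Myh6, the other 3 of that list not passing. Among 6 lung epithelial genes only Foxj1, of ciliated cells, passed (0.542), while Sftpc had an r of 0.04, and 0 of 3 endothelial, 0 of 3 red cell and 0 of 10 cartilage genes passed. Of 5 thymus genes only Foxn1 passed, with an r of -0.391, and of 2 brown fat genes only Cidea, with 0.576.

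The mean over the 6 fat cell genes ran from 0.78 to 1.89 in vehicle mice of day 1 and from 0.75 to 2.43 in those of day 28. It ran from 1.32 to 3.11 at 162 µg and from 1.50 to 4.42 at 18 µg of NRCWE-002 on day 28, where the heart muscle means averaged 1.63 and 1.76. The medians of the fat means there were 2.07 and 2.30, against 1.33 in the vehicle group of day 28. At 18 µg of NRCWE-001 on day 28 the heart muscle means averaged 1.27 and the median of the fat means was 1.85. At 18 µg of NRCWE-001 and at 162 µg of NRCWE-002 on day 1, where the heart muscle means averaged 1.41 and 1.22 against 0.54 in the vehicle group, the median of the fat means was 1.31 and 1.33 against 1.47. Both of these exposed groups of day 1 include arrays with skeletal muscle genes. Ucp1, the defining gene of brown fat, was well above background on only 9 arrays, and the mean over the 17 fast skeletal genes lay between -0.64 and -0.33 in all vehicle mice. The part of these tissues in the differences between groups was not tested.

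Exposure was compared with the vehicle of the same day in a limma fit over all genes, with Benjamini-Hochberg adjusted p-values. On day 1, the 34 members differed from vehicle by a median of 0.64, -0.01 and 0.42 on the log2 scale at 18, 54 and 162 µg of NRCWE-001, and by -0.25, 0.34 and 0.65 at those doses of NRCWE-002. On day 28 the medians were 0.68, 0.24 and 0.13 for NRCWE-001 and 1.26, 0.37 and 1.03 for NRCWE-002. The median over all genes was between -0.01 and 0.01 in these comparisons, and neither particle showed medians that grew with dose on both days. All contrasts of 1 day share the same vehicle mice.

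Single mice moved these medians. Leaving out the high vehicle mouse of the day raised the median to 1.01 at 18 µg and 0.75 at 162 µg of NRCWE-001 on day 1 and to 1.17 and 0.32 on day 28, and to 1.01 at 162 µg of NRCWE-002 on day 1 and 1.38 on day 28. At 18 µg of NRCWE-002 on day 1 it turned the median from -0.25 to 0.10. Without the 7 arrays the median was 0.41 at 18 µg and 0.14 at 162 µg of NRCWE-001 on day 1, 0.18 at 54 µg and 0.17 at 162 µg of NRCWE-002 on day 1, and 0.90 at 18 µg of NRCWE-002 on day 28. Leaving out 1 exposed mouse lowered the median from 0.42 to 0.08 at 162 µg of NRCWE-001 on day 1 (mouse 1), turned it from 0.13 to -0.15 at 162 µg of NRCWE-001 on day 28 (mouse 3), and lowered it from 0.37 to 0.03 at 54 µg (mouse 4) and from 1.03 to 0.73 at 162 µg (mouse 4) of NRCWE-002 on day 28.

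**Figure D5:**
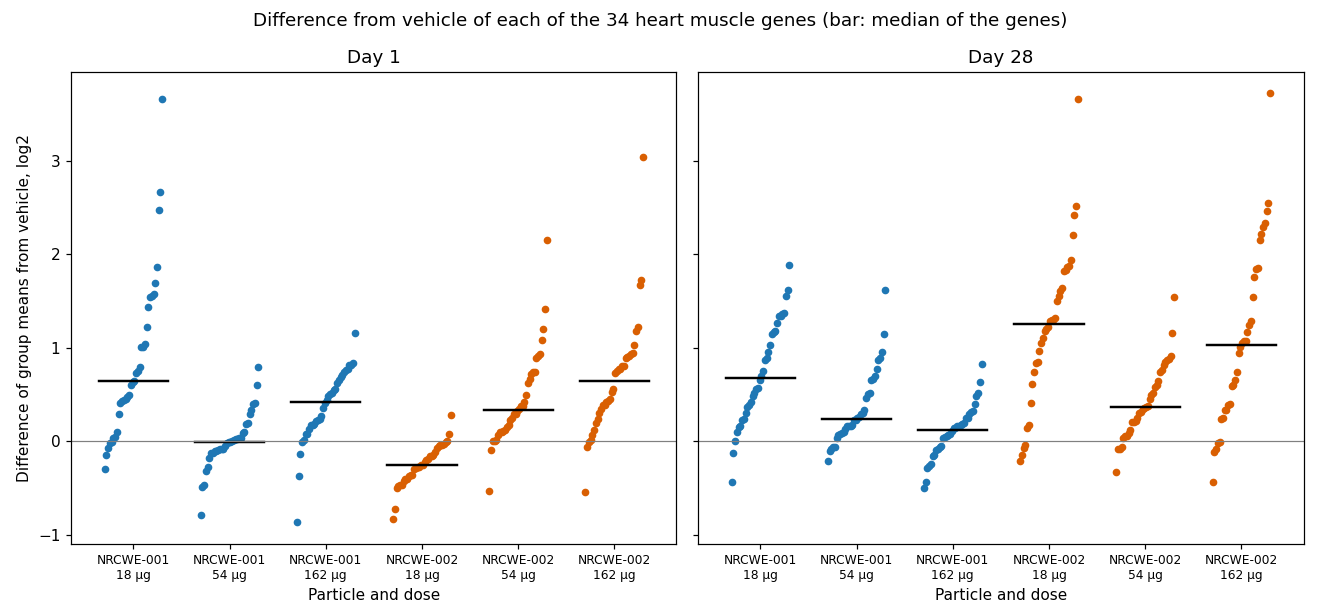
Difference of each of the 34 heart muscle genes from the vehicle of the same day (vertical axis, log2) by particle and dose (horizontal axis), with the median of the genes as a bar. The largest medians are 1.26 and 1.03, at 18 and 162 µg of NRCWE-002 on day 28, and the bars rise at each dose only for NRCWE-002 on day 1.

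In 11 of these 12 contrasts limma called 0 of the 34 members. Myh7 at 162 µg of NRCWE-001 on day 1 was the only one called, where 0.579% of all genes were called. Among all genes, 0.596% were called at 162 µg of NRCWE-002 on day 1, 0.193% at 18 µg of NRCWE-001 on day 28, 0.0624% at 54 µg of NRCWE-002 on day 1, 0.0454% at 162 µg of NRCWE-001 and 0.00567% at 162 µg of NRCWE-002 on day 28, and 0% in the other 6. The F tests over the 3 doses called 0 members for either particle on either day, where 0.698% and 0.477% of all genes were called for NRCWE-001 on days 1 and 28, and 0.823% and 0% for NRCWE-002.

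Counts at an unadjusted p below 0.05 were larger in some contrasts. On day 1 they were 12, 1 and 2 members at 18, 54 and 162 µg of NRCWE-001, against 4.91%, 4.55% and 7.07% of all genes, and 0, 1 and 3 members for NRCWE-002, against 2.97%, 5.83% and 8.94%. On day 28 they were 2, 0 and 1 members for NRCWE-001, against 8.16%, 2.9% and 8.63% of all genes, and 17, 0 and 12 for NRCWE-002, against 6.08%, 4.96% and 6.71%. Most members vary together between mice, so these are not counts of independent genes. Without the 7 arrays, of which 2 are in the 18 µg group of NRCWE-001 on day 1 and 1 in the 18 µg group of NRCWE-002 on day 28, the 12 members became 0, against 2.21% of all genes, and the 17 became 3, against 5.83%, while the 12 at 162 µg of NRCWE-002 on day 28 became 19, against 6.93%. For the F tests p before adjustment was below 0.05 for 7 members (7.87% of all genes) and 0 members (9.03%) for NRCWE-001 on days 1 and 28, and for 2 (7.79%) and 3 (4.35%) for NRCWE-002.

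Sln, the member with the widest spread, had the largest difference at 162 µg for either particle on either day. It differed from vehicle by 3.04 ± 1.44 (SE; adjusted p = 0.506, limma) for NRCWE-002 on day 1 and by 3.72 ± 1.53 (adjusted p = 0.660) on day 28. On day 28 the 5 exposed mice lay between 4.25 and 6.25, and 1 of the 4 vehicle mice, at 5.67, was above 4 of them. Leaving out that vehicle mouse moved the difference to 5.11, with an adjusted p of 0.490. Tnni3 differed by 2.55 ± 1.06 (adjusted p = 0.660), Mb by 2.47 ± 1.06 (0.664) and Myl4 by 2.33 ± 0.92 (0.632) in the same comparison, and for each the high vehicle mouse lay within the range of the exposed mice.

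For NRCWE-002 on day 1, Ckmt2 (1.73 ± 1.02, adjusted p = 0.674), Mb (1.67 ± 1.00, 0.680) and Myl7 (1.23 ± 0.98, 0.831) followed Sln, all by limma. Mouse 2 of that group is among the 7 arrays with skeletal muscle genes, and without the 7 the median of the members fell from 0.65 to 0.17. For NRCWE-001 the largest differences on day 1, beside that of Myh7, were those of Sln (1.16 ± 1.44), Mb (0.84 ± 1.00) and Csrp3 (0.82 ± 0.82), each with an adjusted p of 0.999. On day 28 they were those of Sln (0.82 ± 1.53, adjusted p = 0.952), Mybpc3 (0.64 ± 0.79, 0.914), Mb (0.52 ± 1.06, 0.956) and Myh7 (-0.50 ± 0.24, 0.543). Without mouse 3, the high mouse of that group, Sln and Mb were at -0.01 and -0.03.

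For NRCWE-001 on day 1, Myh7 was the only member whose group means were ordered by dose from the vehicle on. Its levels were 4.98, 4.57, 4.70, 4.92 and 4.57 in vehicle mice, and 4.60, 4.33, 4.62, 4.28 and 5.17 at 18 µg of NRCWE-001, 4.21, 4.20, 4.05, 4.56 and 4.38 at 54 µg and 3.73, 4.03, 3.72, 3.56 and 4.39 at 162 µg. All mice at 54 and 162 µg lay below all vehicle mice, while those at 18 µg overlapped them. The difference from vehicle was -0.15, -0.46 and -0.86 ± 0.22 (SE), and the last had an adjusted p of 0.0498 in limma.

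The call for Myh7 was close to the threshold. It was lost when any of 9 of the 10 mice was left out (adjusted p = 0.0744 to 0.304), that is any vehicle mouse or mouse 1, 2, 3 or 4 at 162 µg, and not without mouse 5 (0.0101), with the difference staying between -0.99 and -0.78. With the slide as a fixed block it was -0.87 (adjusted p = 0.0178), with the slide as a random block -0.87 (0.00517) and with the scan day as a block -0.89 (0.0136). In these 3 fits the F test over doses of NRCWE-001 on day 1 also called Myh7.

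For NRCWE-002 on day 1, Myh7 was at 4.89, 4.37, 4.25, 4.81 and 4.66 at 18 µg, at 4.22, 4.01, 4.52, 4.22 and 4.08 at 54 µg and at 3.99, 5.38, 3.82, 3.57 and 4.28 at 162 µg. All 5 mice at 54 µg and 4 of 5 at 162 µg lay below every vehicle mouse, the exception at 5.38 being on an array with skeletal muscle genes. The difference at 162 µg was -0.54 ± 0.22 (SE; adjusted p = 0.385, limma), and without the 7 arrays it was -0.83 (0.0143). On day 28 vehicle mice were at 4.60, 4.35, 4.66 and 4.62, and the difference from them at 162 µg of NRCWE-002 was -0.43 ± 0.24 (SE; adjusted p = 0.756, limma). Whether the effect of 162 µg differed between days was tested by limma as an interaction, which for Myh7 gave 0.36 ± 0.33 (SE) with NRCWE-001, at an adjusted p of 1.00, and 0.10 ± 0.33 with NRCWE-002, at 0.994. It called 0 members for either particle, and 0% of all genes, with 0 members at an unadjusted p below 0.05, where 4.35% and 6.7% of all genes were.

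The particles were compared by the mean over their 3 doses. On day 1, limma called 0 members, where 0.125% of all genes were called, with 0 members at an unadjusted p below 0.05, where 7.32% of all genes were, and the median difference of NRCWE-002 from NRCWE-001 was -0.09. On day 28 the median was 0.52, the difference being above 0 for 32 of 34 members and 52.5% of all genes. Most members vary together, so the 32 are not independent genes. Few slides held day 28 mice of both particles, so particle and slide cannot be fully told apart there. By adjusted p 1 member was called, where 4.75% of all genes were, and 5 members had an unadjusted p below 0.05, where 22.2% of all genes did. That was Nppb, with a mean of -0.54 for NRCWE-002 against -0.35 for NRCWE-001, a difference of -0.19 ± 0.06 (SE; adjusted p = 0.0482, limma). It lay between -1.13 and -0.27 in the 15 NRCWE-002 mice and between -0.52 and 0.15 in the 15 NRCWE-001 mice. Both probes of Nppb were dim, as given above. With the slide as a fixed block its difference was -0.04 (adjusted p = 0.970). The call was lost in 16 of 30 fits that left out 1 mouse each: mice 1, 3 and 4 at 18 µg, mice 1, 3, 4 and 5 at 54 µg and mice 1, 2, 4 and 5 at 162 µg of NRCWE-001, and mice 2 and 4 at 18 µg, mouse 2 at 54 µg and mice 1 and 2 at 162 µg of NRCWE-002 (adjusted p up to 0.126).

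The vehicle groups of the 2 days were compared in the same limma fit. Here 0 members were called, as were 0% of all genes, with 0 members at an unadjusted p below 0.05, where 5.75% of all genes were, and the median difference of day 28 from day 1 was 0.01. The vehicle mice of the 2 days each held 1 high and several low mice, so the means over the 34 members, 0.54 ± 0.84 (SD, n = 5) and 0.53 ± 0.77 (SD, n = 4), lay close together with wide spreads. For the fat cell and fast skeletal lists limma called 0 genes in any comparison, and of the smooth muscle list it called Tagln in 1 comparison of the particles.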

How the data were processed

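Lung RNA (Cy5) of 69 mice was hybridised with reference RNA (Cy3) on 2-colour Agilent arrays. The authors deposited spot intensity values read with Agilent Feature Extraction 11.0.1.1, not normalized, and a table of log2 ratios normalized by LOWESS. The log2 ratios used here were computed from the deposited intensities with limma 3.58.1 in R 4.3.3 (normexp with an offset of 50, loess within arrays), and correlated at 0.988 to 0.996 with the authors' ratios of the same arrays, which served as an alternative. The processed signal columns of the scanner software, also deposited, served as another.

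Probes were named through RefSeq transcripts of GRCm38.p6 (27479 of 41174 matched). A probe was kept when well above background on at least 4 arrays, and a gene's value was the median over its probes. Groups followed the labels. All 69 arrays were fitted with 14 group means, the call needing an adjusted p below 0.05, and all tests except F were 2-sided. The fit was tested on simulated data. In limma, p-values weigh differences between group means against the spread between mice, and those of the permutations concern the relation to Myh6. The size of the spread between mice was described and not tested. Named for levels were 13 members, for changes up to 4 members with the largest change at 162 µg per particle and day and each member called, and the 20 genes closest to Myh6. The members and lists were chosen with earlier results of these data known. The dyes were never swapped, so the size of a ratio is open to dye bias.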

Additional observations from a re-analysis of the deposited data

Results flagged for a closer look

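For 13 members, the highest and the lowest mouse of each group were compared with the rest of the group by the gap to the nearest mouse over the range of the group (Dixon's test). In 34 of 182 gene and group combinations 1 mouse stood apart, where chance flags about 1 in 20 groups. The members vary together, so that several of these are the same mouse.

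Vehicle mouse 5 of day 1 stood above the other 4 for 9 members: Myh6 at 4.17, Myl7 at 6.45, Actc1 at 0.38, Tnni3 at 3.95, Myl4 at 3.32, Sln at 6.13, Nppa at 2.13, Myl3 at 0.80 and Pln at 0.62. Vehicle mouse 1 of day 28 stood above the other 3 for Myl7 at 6.32, Tnni3 at 3.28, Myl4 at 2.87, Sln at 5.67, Nppa at 0.55, Myl3 at 0.84 and Pln at 0.72. Mouse 5 at 18 µg of NRCWE-002 on day 1 stood above its group for Tnni3 at 1.89, Myl4 at 1.43 and Sln at 4.77.

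Mice on the arrays with skeletal muscle genes stood above their groups for Myl2, Myl3, Myh7 or Ckm. These were mouse 1 at 18 µg of NRCWE-002 on day 28 for Myl2 at 4.49, Myh7 at 5.59 and Ckm at 5.26, mouse 2 at 162 µg of NRCWE-002 on day 1 for Myl2 at 4.06, Myl3 at 2.71 and Ckm at 4.51, mouse 3 at 54 µg of NRCWE-002 on day 1 for Ckm at 2.03, and mouse 5 at 18 µg of NRCWE-001 on day 1 for Myl2 at 2.38.

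The rest were single genes. Nppa stood high at 1.73 in mouse 1 at 18 µg of NRCWE-001 on day 1 and at 2.54 in mouse 3 at 162 µg of NRCWE-001 on day 28, and Pln at 1.55 in mouse 4 at 162 µg of NRCWE-002 on day 28. Myh6 stood low at 1.88 in mouse 5 at 18 µg of NRCWE-002 on day 28, and Myl2 at -0.25 in mouse 5 at 54 µg of NRCWE-001 on day 1. Tbx5 stood low at 1.22 in mouse 2 at 54 µg of NRCWE-002 on day 1. It was also flagged at 3.16 in mouse 1 at 18 µg of NRCWE-002 on day 1, where only the brighter of its 2 probes had a value.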

How the results depend on the processing

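No paired analysis was possible because the labels number the samples across the whole series and give no replicate numbers that groups share. Of 44 results, 33 kept their direction and their side of the threshold under every alternative run. The count of members called at 162 µg of NRCWE-001 on day 1 went from 1 to 0 with the processed signals, with median centring, without the filter on dim probes, with robust and trended variance and, chosen after seeing the data, without the 7 arrays with skeletal muscle genes, and it ran from 0 to 1 when 1 mouse was left out. The count for the particles on day 28 went from 1 to 0 without background correction, with the authors' ratios, the processed signals, median centring, the brightest probe, the slide as a fixed or a random block, the scan day as a block, only the arrays of the comparison and robust and trended variance, and ran from 0 to 1 with 1 mouse left out. The dose effect of NRCWE-001 on day 1 went from 0 members to 1, Myh7, with either slide block, the scan day as a block or only the arrays of the comparison, and ran from 0 to 1 with 1 mouse left out, being 1 without mouse 5 at 162 µg. Without the 7 arrays, the count at 162 µg of NRCWE-002 on day 1 and that of its dose effect each went from 0 to 1, again Myh7. The median SD of the members was 1.53 with the processed signals against 0.977, and their median r with Myh6 was 0.922 without the 7 arrays against 0.753. At 162 µg of NRCWE-001 on day 28, Sln (-0.0051 to 2.21) and Mb (-0.025 to 1.41) turned in sign without mouse 3. The causes were not tested. Values near background have compressed ratios, which limits Myl2, Pln, Ckm, Nppb and several probes of Ttn. The same limits the low values of Sln, Nppa, Mb, Ckmt2, Actn2, Myoz2, Casq2, Ryr2, Hrc and Csrp3.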

Other observations

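Probes of the same member did not always follow Myh6 alike. Of the 3 probes of Atp2a2, the calcium pump of heart muscle and of many other cells, those matched to 1 transcript had an r of 0.920 and 0.823 with Myh6, and the probe matched to another transcript had an r of 0.209. The gene value, the median of the 3, ranged only from -0.59 to 0.64. Of the Myl3 probes, 1 reached 5.82 and had an r of 0.668 with Myh6, and the other reached 3.01 with an r of 0.159.

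The value of Tbx5 in mouse 1 at 18 µg of NRCWE-002 on day 1, 3.16, is that of 1 of its 2 probes alone. The dimmer probe, which lay between -0.07 and 0.54 on the 68 arrays where it had a value, had none on that array. The brighter one lay between 2.14 and 3.52 over all 69 arrays, with a median of 3.00. Within that range 3.16 is not high, so the value does not show a mouse with more Tbx5. The SD, the slide share and the r of Tbx5 given above include it.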
